A study of Mus musculus with 2 samples.

Results

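The genes described here are the initiation and elongation factors of translation and the genes named after them. They were chosen by name alone: every gene symbol that begins with Eif and a digit, or with Eef1 or Eef2. The eIF2 kinases, the genes of the eIF2 gamma subunit, Eef1e1 and pseudogene symbols were left out. The rule found 59 of the 51826 listed genes. A mean level of 1 TPM or more over the 2 libraries (TPM, transcripts-per-million, is scaled by gene length and by library) was reached by 57 of the 59, and by 12943 of all listed genes. Because the choice is by name, it also holds genes that act beside translation factors, namely the eIF4E binding proteins, Eif4a3 of the exon junction complex, and enzymes that modify eEF1A or eEF2. Eif2c5, a gene named after the Argonaute proteins, was also picked up, at 0.272 TPM in wild-type cells and 0.428 TPM in T29I cells.

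Total RNA was sequenced from v6.5 mouse embryonic stem cells, a line of pluripotent cells, once from wild-type cells and once from cells labelled T29I, in a series on the PRSS1 gene. The source label names v6.5 and the strain label of both samples reads NBA1-19349, and the labels do not say how the names relate. No treatment, time point or clone is given in the labels. Each group is 1 library, so no difference below has a replicate check, no p-value is given, and genotype, clone, culture and library preparation cannot be told apart. "Higher" and "lower" describe these 2 libraries.

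Translation initiation begins when eIF4E binds the cap of an mRNA and, with the scaffold eIF4G and the helicase eIF4A, forms the complex eIF4F. The small ribosomal subunit, carrying eIF1, eIF1A, eIF3, eIF5 and the initiator tRNA bound to eIF2 and GTP, is recruited to this mRNA and scans for the start codon. eIF2B recharges eIF2 with GTP, and eIF5B joins the large subunit. During elongation eEF1A delivers each aminoacyl-tRNA, the eEF1B subunits recharge eEF1A, eEF2 moves the ribosome along, and eIF5A helps at sequences where the ribosome stalls. Pluripotent cells are known for keeping global translation low and for raising it on differentiation.

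Prss1, the gene assumed to carry the mutation, had 0 TPM throughout and so gives no check of the labels. As deposited, 71.5% of the 12943 genes averaging 1 TPM or more were lower in T29I cells. TPM values sum to the same total in each library, so this does not measure the amount of RNA. On the log2(TPM + 1) scale the T29I to wild-type ratio had a median of -0.90 across 9375 genes averaging 5 TPM or more. Ratios below are given relative to this shift unless stated otherwise, and pairs of levels give wild-type first. Ratios also followed length and GC content of the longest annotated transcript, which together accounted for 44.9% of their variance over 9100 protein-coding genes. An adjusted ratio, the residual from that trend, is therefore given beside the ratio relative to the shift for most genes described. Where a gene has 2 ratios, the adjusted one comes second. The marker lists that follow were chosen with earlier results of these data known. Both libraries held the 6 ES cell markers, which summed to 4806 versus 2407 TPM, but unequally. Pou5f1 was at 1722 versus 1454 TPM, while Zfp42 was at 544 versus 23.3, Nanog at 765 versus 140 and Esrrb at 313 versus 77.5 TPM, these 3 being at least 2-fold lower also relative to the shift. The 6 trophoblast markers summed to 45.6 TPM in wild-type cells and 823 TPM in T29I cells, where Krt8 made 389, Krt18 353 and Hand1 79.5 TPM. Hand1 was at 0.868 TPM in wild-type cells, while Cdx2 and Elf5 were under 1 TPM in both. The 6 feeder fibroblast markers summed to 6.18 versus 19.5 TPM, of which Thy1 made 4.57 and 17.6 TPM. Only 2 of these 6, Thy1 and Col1a1, reached a mean of 1 TPM. Col1a1 and Col1a2 were also higher in T29I cells, while Col3a1, Postn and Dcn were lower, so the sum describes Thy1 rather than the list. These marker levels moved with every difference below, and their part in it was not tested. In a bulk sample, fewer cells of a type and less RNA per cell cannot be told apart.

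The translation factors were split between the libraries rather than shifted as a block. Eif5a, Eif4ebp1, Eef1g and Eef2 were among the genes higher in T29I cells, and Eif5b, Eif4g1, Eif3a and Eif4a2 among those lower. Measured from the shift, 19 of the 57 genes (33.3%) were higher by 2-fold or more, against a background of 26.0% of the 12943 genes. Another 9 (15.8%) were 2-fold or more lower, against 22.2%. Both shares are near the background, so they are no result particular to these genes. As deposited, without subtracting the shift, 5 genes were at least 2-fold higher (background 9.97%) and 19 were 2-fold or more lower (background 45.7%). The 57 genes had a median of 0.46 from the shift, and all 12943 genes one of 0.055. Abundant genes had a like median: it was 0.515 over 2671 protein-coding genes averaging 50 TPM or more.

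**Figure D1:**
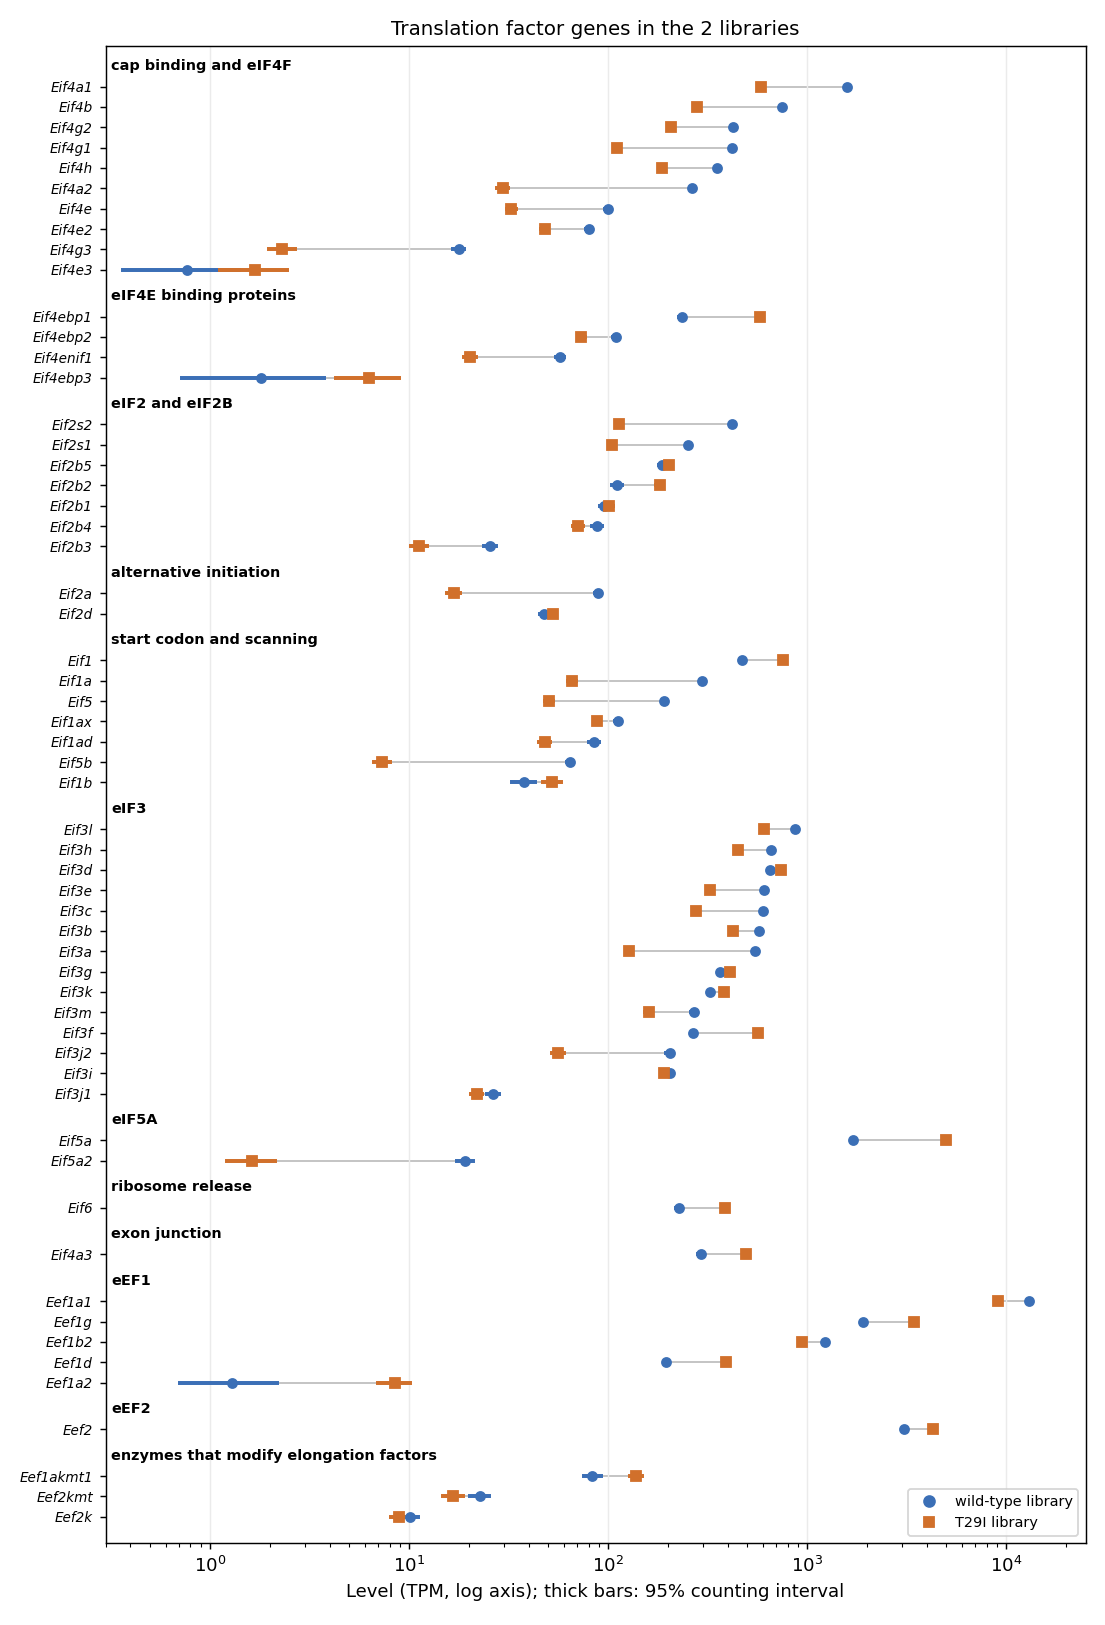
Level of each of the 57 genes in TPM (log axis) in wild-type cells (circles) and the T29I library (squares), grouped by role; thick bars are 95% counting intervals. Eef1a1 is the most abundant of the 57 in both libraries, at 13026 versus 9068 TPM. All genes of cap binding and eIF4F except Eif4e3 lie to the left, that is lower, in T29I cells.

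Of the 57 genes, 53 had counting intervals that did not overlap between the libraries as deposited, 95% intervals that cover counting error only. The same held for 82.8% of 12920 genes, and for 92.7% of the 2671 abundant protein-coding genes, so this count is near the background of genes at such levels. The summed level of the genes came to 3.49% of all TPM in wild-type cells and 3.30% in T29I cells. The 48 genes named Eif made up 1.54% and 1.47%, and the 9 genes named Eef 1.95% and 1.83%. The order of levels was largely shared, with a Spearman's rho of 0.88 between the libraries across the 57 genes, which are not independent replicates. Across the 9100 protein-coding genes averaging 5 TPM or more rho was 0.67. The filter and the spread of levels differ between these sets, so the values of rho are not directly comparable. The makeup differed more: the pair of eIF5A genes took 0.172% of all TPM in wild-type cells and 0.496% in T29I cells, and the 10 genes of cap binding and eIF4F took 0.400% and 0.149%.

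Length and GC content of the transcript went with these differences. Across the 57 genes the ratio had a Spearman's rho of -0.67 with longest-transcript length and of 0.58 with GC content, and -0.53 and 0.56 across the 9100 protein-coding genes. Among the 28 genes with transcripts of 744 to 2556 bases, 16 were 2-fold or more above the shift and 0 below it. Among the 29 with transcripts of 2708 to 8134 bases, 3 were higher and 9 lower. Over genes of all lengths the backgrounds were 26.0% higher and 22.2% lower. The shares of all genes within these length ranges were not computed, so nothing particular to the translation factors is read from the split. After adjustment, 14 of the 57 genes lay 2-fold or more above the trend (background 17.6%) and 1, Eif4a2, was at least 2-fold lower (background 15.5%). The adjusted list median was 0.34, against 0.040 over all genes and 0.096 over protein-coding genes averaging 50 TPM or more. With the principal annotated transcript in place of the longest, 11 of 51 genes were higher (background 17.5%) and 2, Eif2a and Eif4g2, lower (background 13.4%). The list median was then 0.23, against 0.063 over all genes and 0.13 over protein-coding genes averaging 50 TPM or more. Eif4a2, Eif4g1, Eif4g3, Eif2b4, Eif2d and Eef1d had no principal-transcript value, so their adjusted ratios rest on the longest transcript alone. Of the 19 genes that were at least 2-fold higher, 9 remained so after adjustment, and of the 9 lower genes Eif4a2 alone remained.

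**Figure D2:**
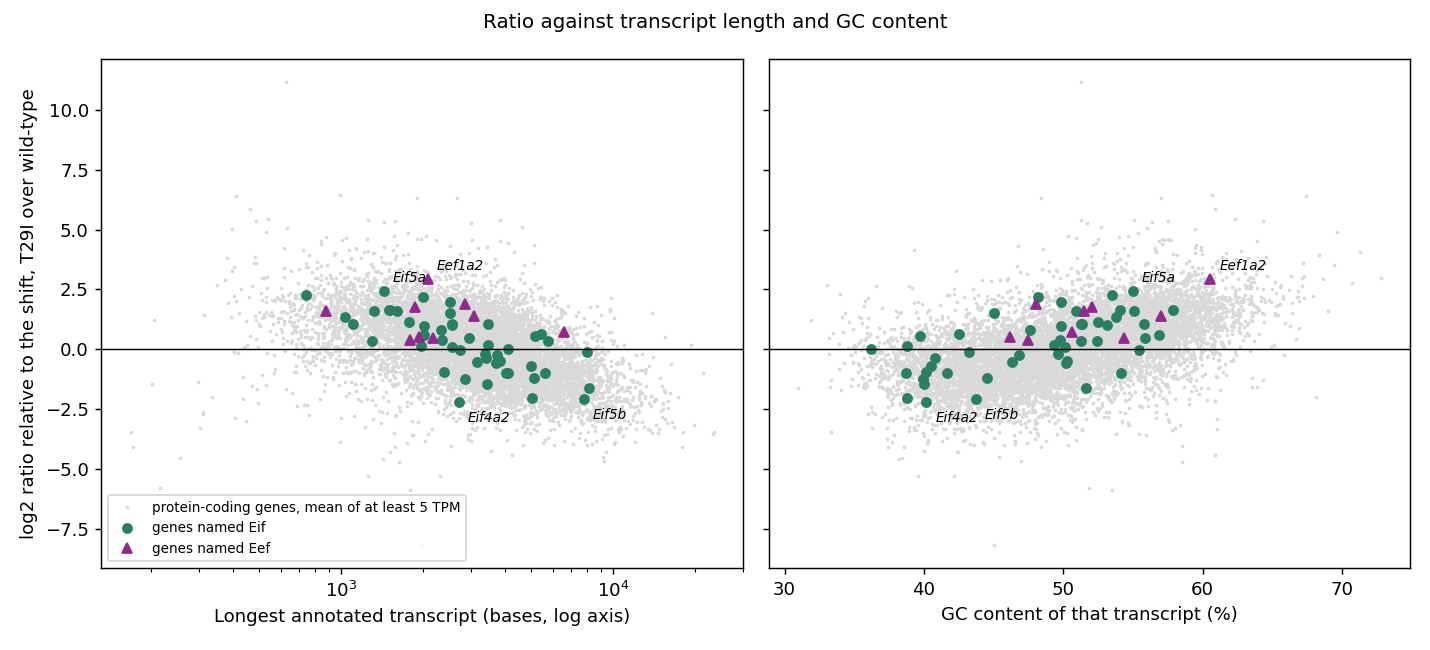
log2 ratio relative to the shift (vertical axis) against the length of the longest annotated transcript (left, bases, log axis) and its GC content (right, percent), for genes named Eif (circles), genes named Eef (triangles) and protein-coding genes averaging 5 TPM or more (grey dots). The translation factors follow the sloping grey cloud, with Spearman's rho of -0.67 for length and 0.58 for GC content. All 9 Eef genes lie above 0, as do 51.4% of the 12943 genes and 64.7% of protein-coding genes averaging 50 TPM or more. As deposited, 5 of the 9 were higher and 4 lower in T29I cells.

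**Figure D3:**
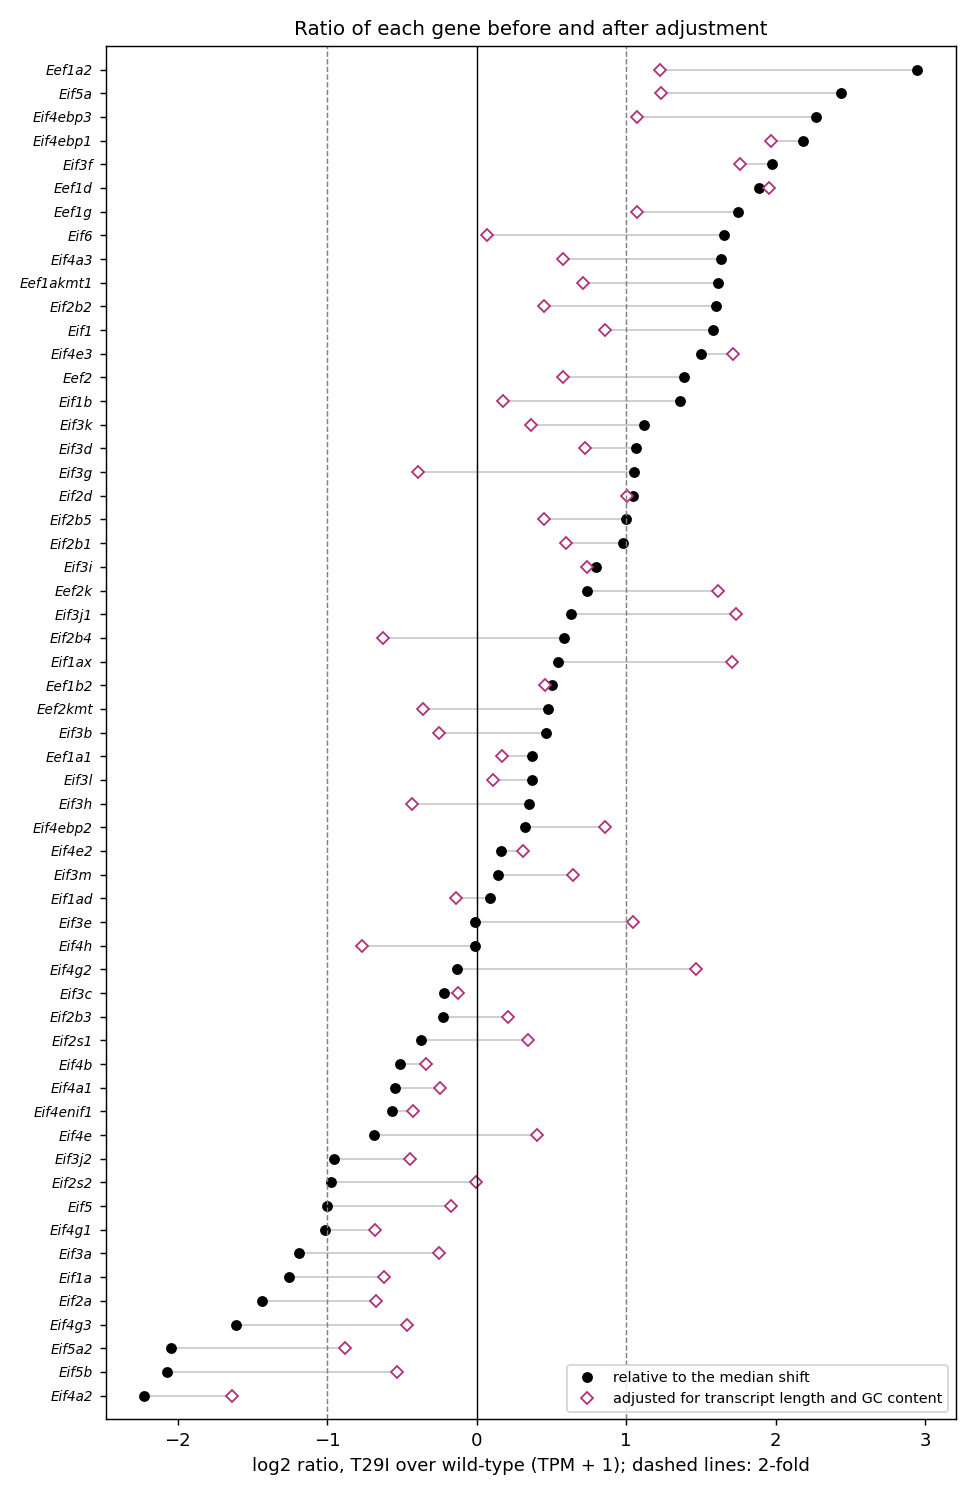
log2 ratio of T29I over wild-type for each of the 57 genes, relative to the shift (filled circles) and adjusted for transcript length and GC content (open diamonds); dashed lines mark 2-fold. Most diamonds lie nearer to 0 than their circles, while Eif4ebp1, Eif3f and Eef1d stay between 1.76 and 1.97.

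Promoter sequences are given because Eif4e is a textbook Myc target. RefSeq promoter windows of 300 bases on GRCm38.p6, from 250 before the annotated start to 50 after it, matched 44 of the 59 genes by symbol. The letters CACGTG, a palindrome known as the E-box that Myc and its relatives bind, stood in a window of 12 of the 44 genes (27.3%), against 8.09% of all 27025 symbols. Per window the shares were 24.1% and 7.15%. The letters CCGGAAG, on either strand, a core bound by ETS factors, stood in 16 of the 44 (36.4%, against 9.93% of all symbols). TATAA, on either strand, stood in 6 of the 44 (13.6%, against 28.0%), and these 6 included Eef1a1, Eef2 and Eif1. A match is a description of these letters only. The shares among expressed genes, or among windows of like GC content, were not computed. Nothing particular to the translation factors is therefore read from these contrasts. The searches do not overlap one another in letters, although a window can hold more than 1 motif.

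E-box windows of 4 genes of cap binding and eIF4F and of both eIF5A genes are shown because the levels of these genes are described below. Each line gives 30 bases, 5′ to 3′ on the strand of the gene, with the E-box in capitals. Only 1 site is shown per gene, and Eif4e, Eif4g1, Eif5a and Eif5a2 held further ones.
Eif4e (chr3:138527192-138527221, + strand): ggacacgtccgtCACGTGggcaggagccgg
Eif4g1 (chr16:20672661-20672690, + strand): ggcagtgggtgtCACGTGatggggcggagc
Eif4a1 (chr11:69672595-69672624, - strand): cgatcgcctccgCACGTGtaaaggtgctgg
Eif4h (chr5:134639488-134639517, - strand): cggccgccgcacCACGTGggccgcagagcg
Eif5a (chr11:69921443-69921472, - strand): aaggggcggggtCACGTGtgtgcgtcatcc
Eif5a2 (chr3:28781148-28781177, + strand): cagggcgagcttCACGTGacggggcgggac
The 12 genes with an E-box had a median ratio of 0.36 relative to the shift and the 31 other matched genes at or above 1 TPM had 0.37. Eif5a and Eif5a2 share the letters and lay at opposite ends of the list.
The TATAA windows of the most abundant elongation factor genes and of Eif1 are shown because they belong to the best expressed genes of the list, with TATAA in capitals.
Eef1a1 (chr9:78481682-78481711, - strand): gggagaacggtaTATAAgtgcggcagtcgc
Eef2 (chr10:81176604-81176633, + strand): ccggcgtcgaccTATAAaaggccgggcgtt
Eif1 (chr11:100319946-100319975, + strand): caggggcggctaTATAAgtgaatacaggcg
In Eef1a1 and Eif1 the letters begin 26 and 10 bases after the annotated RefSeq start, and in Eef2 15 bases before it.

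Of the 10 genes of cap binding and eIF4F at or above 1 TPM, 9 had a lower level in T29I cells, where 71.5% of the 12943 genes and 60.8% of the abundant protein-coding genes were lower. Relative to the shift 3 were lower by 2-fold or more (background 22.2%, or 14.3% of the abundant genes) and 1 was higher (background 26.0%), and nothing particular to the complex is read from these counts. Eif4e, which encodes the cap-binding protein, measured 100 TPM in wild-type cells (96.5 to 104, the counting interval) against 32.7 TPM in T29I cells (30.9 to 34.5), 3.06-fold lower. Its ratio was -0.69 relative to the shift, or 0.41 adjusted, so its direction differs between the scales; its longest transcript has 4991 bases. Eif4e2, a homologue that represses translation at the cap, was at 80.5 versus 48.1 TPM, with ratios of 0.17 and 0.31, or -0.15 with the principal transcript. In unadjusted levels Eif4e thus was the higher of the pair in wild-type cells and Eif4e2 in T29I cells, with Eif4e at 55.4% and 40.4% of their sum. Their adjusted ratios with the longest transcript lay close, at 0.41 and 0.31, so that scale shows no such change within the pair. Eif4e3, an atypical family member, was at 0.766 versus 1.69 TPM, from an estimated 10 and 28 reads, and its counting intervals overlapped. Eif4e1b, a germline homologue, was under 1 TPM in both libraries, at 0.769 and 0.671.

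The scaffold gene Eif4g1 (ENSMUSG00000045983, chromosome 16) measured 421 TPM in wild-type cells (415 to 428) against 112 TPM in T29I cells (109 to 115). That is 3.77-fold lower as deposited, -1.01 relative to the shift, or -0.68 adjusted. Eif4g3, its paralogue, was at 17.8 versus 2.31 TPM, with ratios of -1.61 and -0.46. Both scaffolds that bind eIF4E were therefore lower. Eif4g2, also called DAP5, lacks the eIF4E-binding part and serves cap-independent and alternative initiation. It was at 424 versus 208 TPM, -0.13 relative to the shift. In the wild-type library Eif4g1 and Eif4g2 were nearly level, with Eif4g1 at 49.8% of their sum, and in T29I cells Eif4g1 made up 35.0%. The adjusted ratio of Eif4g2 was 1.47 with its longest transcript of 7995 bases and -1.35 with its principal annotated transcript of 742 bases, so no adjusted direction can be given for it.

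The helicase pair held the lowest ratio of the complex. Eif4a1, the abundant helicase, was at 1588 versus 585 TPM, with ratios of -0.55 and -0.24. Eif4a2, its close paralogue, was at 265 TPM (259 to 271) versus 29.6 TPM (27.8 to 31.4), 8.95-fold lower as deposited, -2.22 relative to the shift, or -1.64 adjusted. With 1 TPM added to each level, Eif4a2 had the lowest ratio of the 57 genes on both scales. Relative to the shift with 0.1 TPM added, Eif5a2 was lower, at -2.54 against -2.22 for Eif4a2. Upper-quartile scaling also put Eif5a2 marginally lower, at -2.51 against -2.49. Eif4a1 made up 85.7% of the pair's sum in wild-type cells and 95.2% in T29I cells. Of the 50-base windows of the annotated transcripts, 28.4% for Eif4a1 and 10.6% for Eif4a2 also occur in transcripts of other genes, which can move reads between copies. Eif4a2 (chromosome 16) also holds 5 annotated small nucleolar RNA genes and overlaps exons of Rfc4 on the other strand. The helicase cofactor Eif4b was at 746 versus 280 TPM, with ratios of -0.51 relative to the shift, or -0.34 adjusted. Eif4h, also a cofactor, was at 352 versus 187 TPM, with ratios of -0.014 and -0.77.

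The 4 genes of eIF4E-binding proteins went both ways: as deposited, 2 were higher in T29I cells and 2 lower. Eif4ebp1 encodes 4E-BP1, which holds eIF4E away from eIF4G until mTOR phosphorylates it, and measured 236 TPM in wild-type cells (227 to 245) against 577 TPM in T29I cells (565 to 590). It was 2.45-fold higher as deposited, 2.18 relative to the shift, or 1.97 adjusted, the highest adjusted ratio of the list. Eif4ebp2 was at 110 versus 73.6 TPM, with ratios of 0.33 and 0.86. Eif4ebp3 was at 1.81 versus 6.31 TPM, from an estimated 7 and 31 reads, and 65.5% of its 50-base windows also occur in transcripts of an overlapping gene on the same strand. Eif4enif1, which carries eIF4E into the nucleus, was at 57.4 versus 20.2 TPM, with ratios of -0.56 and -0.43. Set against Eif4e, Eif4ebp1 was 2.36 times as abundant in wild-type cells and 17.7 times in T29I cells. Eif4a1 in contrast kept a near ratio to Eif4e, at 15.9 and 17.9 times. Both comparisons use levels not adjusted for length and GC content. The adjusted ratio of Eif4e was 0.41, against 1.97 for Eif4ebp1 and -0.24 for Eif4a1. On that scale the gap between Eif4ebp1 and Eif4e is smaller, and Eif4a1 and Eif4e lie apart.

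**Figure D4:**
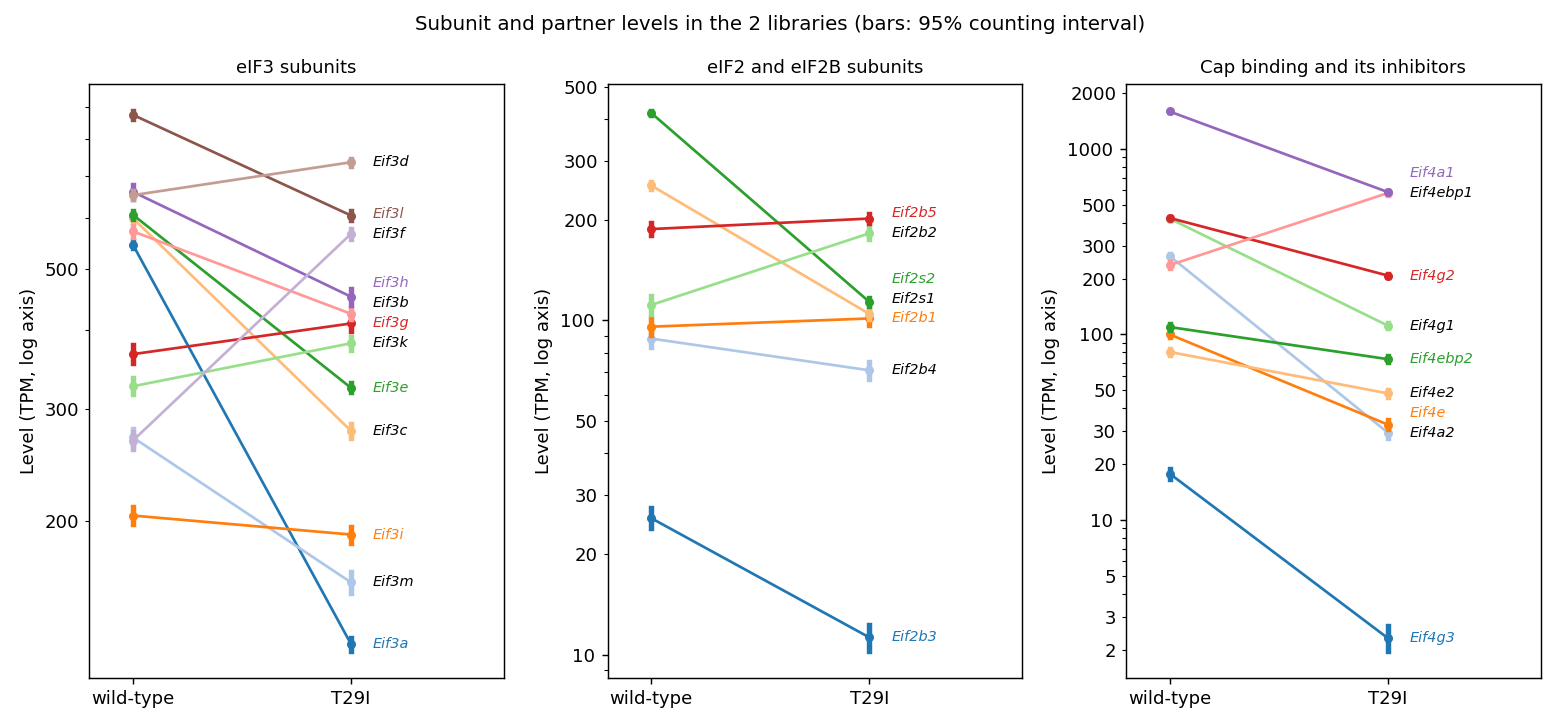
Levels in TPM (log axis) in the wild-type and T29I libraries for the 12 eIF3 subunit genes without Eif3j1 and Eif3j2 (left), the eIF2 and eIF2B subunit genes (middle) and genes of cap binding and its inhibitors (right); each line joins the 2 values of a gene and short bars are 95% counting intervals. The line of Eif3a runs down from 545 to 128 TPM and that of Eif3f up from 268 to 568 TPM, and Eif4ebp1 runs up from 236 to 577 TPM across the descending lines of the eIF4F genes.

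Before adjustment, the alpha and beta genes of eIF2 were lower and most eIF2B genes were not. That contrast did not hold after adjustment, and the gamma subunit genes had been left out by the rule. Eif2s1, the alpha subunit that stress kinases phosphorylate, was at 253 versus 105 TPM, with ratios of -0.37 relative to the shift, or 0.34 adjusted. Eif2s2, the beta subunit, was at 418 versus 114 TPM, with ratios of -0.97 and -0.0025. Beta was thus more abundant than alpha in wild-type cells, while in T29I cells the pair lay close, with alpha at 37.8% and 47.9% of their sum. Of the 5 eIF2B genes, Eif2b2 was at 111 versus 182 TPM, with a ratio of 1.60 relative to the shift, or 0.45 adjusted. Eif2b5, the catalytic epsilon subunit, was at 188 versus 202 TPM, and Eif2b1, the alpha subunit, at 95.8 versus 101 TPM; their counting intervals overlapped as deposited, and both ratios lay just under 2-fold, at 0.999 and 0.976. Adjusted, Eif2b5 and Eif2b1 were at 0.45 and 0.60. Eif2b4 was at 88.3 versus 70.9 TPM, with ratios of 0.58 relative to the shift, or -0.63 adjusted. Eif2b3 was at 25.6 versus 11.3 TPM, with ratios of -0.22 and 0.21, or -0.32 with the principal transcript. The order of the 5 eIF2B genes differed between the libraries in no place, with Eif2b5 highest and Eif2b3 lowest, and the span from highest to lowest was 7.33-fold and 17.9-fold. After adjustment no eIF2 or eIF2B gene was 2-fold from the trend.

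Eif2a and Eif2d encode proteins that can bring initiator tRNA to the ribosome without eIF2, and they parted. Eif2a was at 89.0 versus 16.8 TPM, 5.28-fold lower, with ratios of -1.44 and -0.67, or -1.01 with the principal transcript. Eif2d was at 47.5 versus 52.9 TPM, with ratios of 1.05 and 1.00.

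Genes of scanning and start codon choice went in both directions. Eif1, which guards start codon choice, was at 470 TPM (458 to 484) in wild-type cells and 758 TPM (743 to 772) in T29I cells, with ratios of 1.58 and 0.86. Its paralogue Eif1b was at 37.7 versus 52.5 TPM, with ratios of 1.36 and 0.18. Eif5, the activator of GTP hydrolysis by eIF2, was at 191 versus 50.6 TPM, at the 2-fold line with -1.004 relative to the shift, or -0.17 adjusted. Eif5b, the GTPase that joins the subunits, was at 64.4 TPM (62.2 to 66.6) versus 7.36 TPM (6.71 to 8.05), 8.75-fold lower, with ratios of -2.07 and -0.53. Its transcript of 7797 bases is among the longest of the list, and the adjustment removed most of its difference. Eif1a, on chromosome 18, and Eif1ax, on chromosome X, encode forms of eIF1A. Eif1a was at 296 versus 65.9 TPM and Eif1ax at 112 versus 87.8 TPM, so that Eif1a made up 72.5% of the pair in wild-type cells and 42.9% in T29I cells. Relative to the shift Eif1a and Eif1ax were at -1.25 and 0.54, and their adjusted ratios were -0.62 and 1.71. Eif1ad, a gene named for an eIF1A-like domain, was at 84.8 versus 48.0 TPM, with ratios of 0.087 and -0.14.

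The eIF3 complex, the largest initiation factor, was abundant in both libraries and its subunits differed unequally. Over the 12 subunit genes without Eif3j1 and Eif3j2 the median was 559 TPM in wild-type cells and 396 TPM in T29I cells. Levels ran from Eif3i at 204 to Eif3l at 873 TPM in wild-type cells, and from Eif3a at 128 to Eif3d at 735 TPM in T29I cells. Eif3a, which encodes the largest subunit and scaffold, was at 545 TPM (538 to 552) versus 128 TPM (125 to 131), 4.26-fold lower, with ratios of -1.19 relative to the shift, or -0.25 adjusted. Eif3f was at 268 TPM (260 to 276) versus 568 TPM (557 to 578), 2.12-fold higher, with ratios of 1.97 and 1.76. Eif3f was the eIF3 gene furthest from the trend in either direction. Eif3d, the subunit that can itself bind caps, was at 653 versus 735 TPM, with ratios of 1.07 and 0.72. Eif3g and Eif3k were at 367 versus 410 TPM and at 326 versus 381 TPM; both were over 2-fold higher relative to the shift, at 1.06 and 1.12, but -0.39 and 0.37 after adjustment. With the principal transcript in place of the longest, the values of Eif3g and Eif3k were -0.27 and -0.068, so neither direction holds.

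Other core subunits lay between these ends. Eif3b, with an RNA-binding and a propeller part, was at 572 versus 424 TPM, with ratios of 0.46 relative to the shift, or -0.25 adjusted. Eif3c was at 600 versus 277 TPM, with ratios of -0.22 and -0.13. Eif3e was at 608 versus 324 TPM, -0.0088 relative to the shift, or 1.05 adjusted and 0.48 with the principal transcript. Eif3h, Eif3l and Eif3m were at 661 versus 451, 873 versus 606, and 271 versus 160 TPM, and Eif3i at 204 versus 191 TPM. Relative to the shift these genes were at 0.35, 0.37, 0.14 and 0.80, in that order. Adjusted, they were at -0.43, 0.11, 0.64 and 0.74. With the principal transcript Eif3l and Eif3i were at -0.070 and -0.11. Across all 14 eIF3 genes, 4 were at least 2-fold higher (background 26.0%) and 1 lower (background 22.2%) relative to the shift, with a median of 0.42, while the adjusted values put 3 above (background 17.6%) and 0 below (background 15.5%). Eif3j1 and Eif3j2 encode the loosely bound subunit and are near-identical copies: 91.8% of the 50-base windows of Eif3j2 and 36.9% of those of Eif3j1 occur elsewhere. Their split is therefore uncertain. Eif3j1 was at 26.5 versus 21.9 TPM, with ratios of 0.63 and 1.73. Eif3j2 was at 205 versus 56.0 TPM, with ratios of -0.96 and -0.44. The sum of both genes was at 231 versus 77.9 TPM.

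Eif5a had the highest T29I level among the initiation factor genes. It encodes the factor that carries hypusine, an amino acid made on it by deoxyhypusine synthase, and lies on the - strand of chromosome 11. It measured 1703 TPM in wild-type cells (1680 to 1726) against 4963 TPM in T29I cells (4928 to 4998), 2.91-fold higher. It ranked 76 among all genes in wild-type cells and 22 in T29I cells, and its ratios were 2.44 relative to the shift, or 1.23 adjusted. The paralogue Eif5a2 was at 19.2 TPM (17.5 to 20.9) versus 1.63 TPM (1.22 to 2.12), 11.8-fold lower, with ratios of -2.05 and -0.88. The pair thus differed in opposite directions on both scales, although Eif5a made up 98.9% and 99.97% of their sum. Dhps, the synthase, was at 63.9 versus 76.8 TPM, with ratios of 1.16 and -0.16. Eif6, which keeps the ribosomal subunits apart, was at 228 versus 386 TPM, with ratios of 1.65 and 0.066. Eif4a3, the helicase of the exon junction complex, was at 294 versus 492 TPM, with ratios of 1.63 and 0.58.

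The 6 genes of eEF1 and eEF2 lay above 0 relative to the shift, as did 51.4% of the 12943 genes and 64.7% of the abundant protein-coding genes. Of the 6, 4 were at least 2-fold higher, against 26.0% and 36.4%, and their median was 1.57. As deposited 4 were higher and 2 lower in T29I cells, so the common direction rests on the shift. After adjustment 3 were at least 2-fold higher (background 17.6%) and the range was 0.17 to 1.95. Eef1a1, which encodes the main eEF1A, ranked 4 among all genes in wild-type cells at 13026 TPM (12964 to 13088) and 9 in T29I cells at 9068 TPM (9022 to 9114). Its ratios were 0.37 and 0.17. Eef1a2, the form of muscle and neurons, was at 1.29 TPM (0.708 to 2.17) versus 8.498 TPM (7.03 to 10.2), from an estimated 14 and 117 reads, with ratios of 2.94 and 1.23. Eef1a1 nonetheless made up 99.99% and 99.91% of the pair. Because 39.4% of the 50-base windows of Eef1a1 and 44.2% of those of Eef1g occur in transcripts of other genes, their levels can depend on how multiply mapping reads were handled. The pseudogenes with most shared windows, Gm13456 and Gm4366, were listed at 0 in both libraries.

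The exchange factor subunits that recharge eEF1A had unlike ratios. Eef1g, the gamma subunit, was at 1899 TPM (1876 to 1923) versus 3426 TPM (3398 to 3454), with ratios of 1.75 and 1.07. Eef1d, the delta subunit, was at 196 versus 391 TPM, with ratios of 1.89 and 1.95, the second-highest adjusted ratio of the list. It overlaps exons of Naprt on the same strand, which was at 17.9 versus 59.0 TPM. Eef1b2, the beta subunit, was at 1235 versus 941 TPM, with ratios of 0.50 and 0.46. Eef1g was thus 1.54 times as abundant as Eef1b2 in wild-type cells and 3.64 times in T29I cells. Eef2, the translocase, was at 3053 TPM (3027 to 3079) versus 4288 TPM (4261 to 4316), with ratios of 1.39 and 0.58. The ratio of Eef1a1 to Eef2 was 4.27 and 2.12.

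Among the enzymes that act on elongation factors, Eef1akmt1, a lysine methyltransferase of eEF1A, was at 83.4 versus 138 TPM, with ratios of 1.61 and 0.71. Eef2k, the kinase that inactivates eEF2, was at 10.1 versus 8.97 TPM with overlapping counting intervals, 0.74 relative to the shift, or 1.61 adjusted. Eef2kmt, a methyltransferase of eEF2, was at 22.7 versus 16.7 TPM, with ratios of 0.48 and -0.36.

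Other genes of the translation machinery came from a list of 47, chosen with earlier results of these data known. Of these, 46 were listed and reached a mean of 1 TPM, and they also held genes higher and lower in T29I cells. Their median was -0.31 relative to the shift, with 7 of the 46 higher and 12 lower by 2-fold or more (backgrounds 26.0% and 22.2%). The adjusted median was -0.050, with 2 higher and 8 lower (backgrounds 17.6% and 15.5%). Among the eIF2 kinases, Eif2ak2, which encodes the double-stranded RNA sensor PKR, was at 14.3 TPM (12.9 to 15.8) versus 0.237 TPM (0.102 to 0.467), with ratios of -2.73 and -1.96. Eif2ak1, Eif2ak3 and Eif2ak4 were at 38.8 versus 15.4, 9.80 versus 3.99, and 13.5 versus 2.11 TPM. Of the eIF2 phosphatase subunits, Ppp1r15a was at 32.8 versus 32.6 TPM and Ppp1r15b at 64.5 versus 11.7 TPM. Pdcd4, an inhibitor of eIF4A, was at 25.7 versus 2.31 TPM, with ratios of -2.12 and -1.79. Abce1, the ribosome recycling factor, was at 229 versus 24.7 TPM, with ratios of -2.26 and -1.43, and Denr, a partner of Mcts1 in recycling and reinitiation, at 136 versus 26.8 TPM, with -1.40 and -1.30. The release factor genes Etf1 and Gspt1 were at 404 versus 104 TPM and at 256 versus 76.0 TPM, and the poly(A)-binding gene Pabpc1 at 1021 versus 484 TPM. Eefsec, the selenocysteine elongation factor, was at 21.3 versus 51.7 TPM, with ratios of 2.14 and 1.23. Larp1, which binds mRNAs of the translation machinery, was at 180 versus 61.9 TPM, with ratios of -0.63 and -0.0026.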

How the data were processed

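RNA of 1 wild-type and 1 T29I library of v6.5 mouse ES cells was analysed. Per the labels' protocols, libraries were made with TruSeq Stranded Total RNA with Ribo-Zero, which removes ribosomal RNA. The authors deposited 1 table of TPM values per gene and library, and each column summed to 1000000. The sources used here name no aligner, counting tool or build. Columns were assigned through the sample descriptions.

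All 59 genes matched GENCODE M21 (GRCm38) by identifier. Ratios were log2((T29I TPM + 1)/(wild-type TPM + 1)), which understates differences of low genes, and the size rule was a log2 value of at least 1 relative to the shift. The adjusted ratio is what a quadratic surface in log2 length and GC content left unexplained (checked with simulated ratios). It removes true differences that follow length or GC content too. Reads were estimated from TPM times merged exon length: 88.7% and 87.2% of low values came out whole within 0.05, against 10% by chance, giving 16904407 and 15277702 reads. Exact 95% Poisson intervals cover counting error only. Every gene with a mean of at least 1 TPM could be named. The genes and lists were chosen with earlier results of these data known. Promoter windows were RefSeq's. Python 3.11.15, pandas 2.3.3, numpy 2.4.6 and scipy 1.17.1 were used.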

Additional observations from a re-analysis of the deposited data

How the results depend on the processing

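The list median of 0.46 was -0.43 as deposited, without the shift subtracted, and the counts of at least 2-fold higher and lower genes were then 5 and 19 in place of 19 and 9. Adjusted for length and GC content of the longest transcript, 1 gene was lower; with the principal transcript, an alternative chosen after seeing the data for which 51 of 57 genes had a value, 11 were higher and 2 lower. Among the genes at least 2-fold from the shift, Eif3g changed sign under both adjustments (-0.39 and -0.27) and Eif3k under the principal transcript (-0.068). Across all 57 genes, 11 had opposite signs relative to the shift and adjusted with the longest transcript, Eif4e, Eif2s1 and Eif2b4 among them. The cause was not tested. Under pseudocounts of 0.1 and 5, other filters on low values, a protein-coding reference and upper-quartile scaling, the median ranged from 0.20 to 0.50. All 28 genes at least 2-fold from the shift kept their direction, but genes chosen for their size could hardly change sign under these settings. At least 2-fold in the same direction were still 22 of the 28 with a pseudocount of 5 and 24 with upper-quartile scaling. As deposited, 14 of the 28 were. No paired analysis was possible because each group has 1 library. Depth limits the low genes: Eif4e3, Eif4ebp3 and Eef1a2 rest on an estimated 10, 7 and 14 reads in the wild-type library.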
